A study of Mus musculus with 5 samples.

Results

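Bile acid synthesis and conjugation enzymes were examined in livers of mouse embryos late in gestation (E18.5). The set was defined by gene symbol as Cyp7a1, Cyp8b1, Cyp27a1, Cyp7b1, Hsd3b7, Akr1d1, Baat, Slc27a5, Amacr and Acox2, and 9 of these 10 genes were found among the 23022 genes of the authors' comparison of 4N with WT liver. Hsd3b7, which acts just after the ring hydroxylases, was not analysed here. The 4N group held 3 livers from Hhex knockout embryos that received tetraploid embryonic stem cells (4N-ESCs, td-Tomato positive) at the blastocyst stage. The WT group held 2 livers from normal embryos of the same day. The groups therefore differed at once in ploidy, in where the cells came from, in whether the host had Hhex and in its handling, which cannot be told apart. Apart from the injection of the 4N group at the blastocyst stage, all embryos came from ordinary husbandry. The labels state neither strain nor sex nor which liver cells of a 4N embryo came from the injected cells. They do not say whether livers of a group came from separate litters, so the p-values measure only the spread between these samples.

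Bile acids are made from cholesterol in hepatocytes. In the classical route Cyp7a1 hydroxylates the sterol ring first, and in the alternative route Cyp27a1 oxidizes the side chain first and Cyp7b1 then hydroxylates the ring. Akr1d1 reduces the ring, the side chain is activated with coenzyme A and shortened in peroxisomes, and Baat joins the product to an amino acid, in mice mainly taurine. Before birth the liver already makes bile acids, and the pathway matures around birth and weaning.

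Outcomes of the authors' test differed among the enzymes. The ring reductase Akr1d1 and 3 enzymes that act on the side chain or its coenzyme A ester, Slc27a5, Amacr and Baat, fell in 4N liver to between 0.200 and 0.366 of the WT level. Cyp7a1, the rate-limiting enzyme of the classical route, rose to 1.74 times the WT level. Cyp8b1, Cyp27a1, Cyp7b1 and the side chain oxidase Acox2 did not pass the test. With the threshold set at 0.05 on the authors' adjusted Wald p, 4 of 9 enzymes were thus lower, against 7.41% of all genes, and 1 of 9 was higher, against 7.94%. Among the 8656 abundant genes, those whose mean reached 1000 normalized counts, which include 8 of the 9 enzymes, 10.3% were lower and 11.9% higher. The 1 of 9 higher is therefore near the background. The median log2 fold change of the 9 enzymes was -0.66, against -0.0010 over all genes. Of 26 secreted plasma protein genes, which are hepatocyte products too, 13 fell and 0 rose, with a median of -0.56. When the Wald statistic was read against a t distribution with 3 degrees of freedom, 0 enzymes and 0 of all genes passed after adjustment, and the 5 called enzymes stayed under an unadjusted p of 0.05, as did 2513 of all genes.

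Values of single livers were not analysed here, so the levels below are group means reconstructed from the overall mean and the fold change in the authors' deposited table. They carry no error of their own, and each log2 fold change is given as the authors' value ± its standard error (SE). The depth of each library is unknown, and the direction of the fold changes was inferred from their standard errors, as described below. The liver identity of the tissue was plain from 10 defining hepatocyte markers, which took 15.8% of all normalized counts in 4N liver and 16.3% in WT liver. Of these markers 0 rose and 4 fell, with a median log2 fold change of -0.39, and albumin (Alb) stood at 0.01 ± 0.22 in the authors' deposited table. All of these markers are also among the 26 secreted plasma protein genes, so the counts of the lists are not separate. All 15 erythroid markers rose, by 0.72 to 3.29 on the log2 scale, led in abundance by Hba-a1, and took 4.50% of the counts in 4N liver and 1.31% in WT liver. Of 11 macrophage markers, led by Csf1r, 4 rose and 1 fell (median 0.53, summed mean 46618 normalized counts in 4N liver and 34755 in WT liver), and of 8 stellate markers, led by Reln, 3 rose and 1 fell (median 0.66, summed mean 83845 in 4N liver and 48328 in WT liver). Of 8 cholangiocyte markers, led by Spp1, 0 rose and 1 fell (median 0.42), and of 8 endothelial markers, led by Stab1, 0 were called (median 0.03). Of 6 ileal markers only 2 were measured, of which Fabp2 fell and Vil1 rose. Of 4 measured markers of steroid glands, led by Star, 0 were called. For these marker counts, the shares of all genes were 7.41% lower and 7.94% higher. In such bulk tissue fewer hepatocytes and less RNA per hepatocyte cannot be told apart, and the part of these cell types in the enzyme values was not tested.

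**Figure D1:**
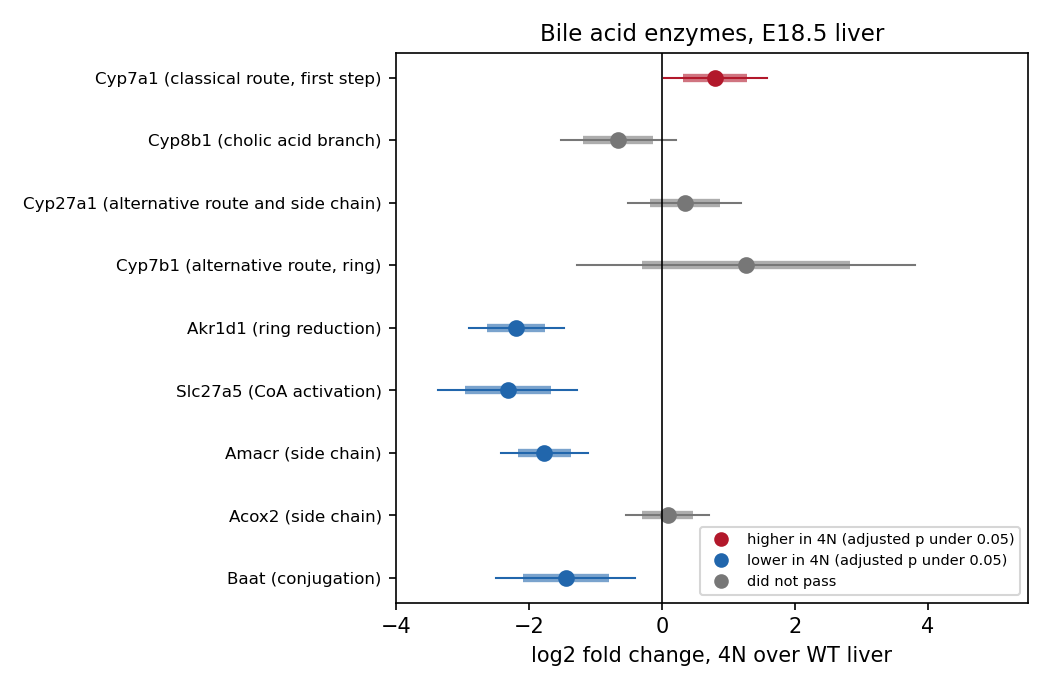
Log2 fold change of 4N over WT liver for the 9 enzymes, ordered along the pathway from the first hydroxylation at the top to conjugation at the bottom. Points are the authors' values, thick bars 95% intervals from the normal distribution and thin bars the wider ones with 3 degrees of freedom. Akr1d1, Slc27a5, Amacr and Baat lie left of 0 with both intervals, while Acox2, between Amacr and Baat in the order, sits at 0.08.

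Of the 9 enzymes, Cyp7a1, at the first step of the classical route, was the only one called higher, a count near the background. Cyp7a1 had a reconstructed mean of 5306 normalized counts in 4N liver and 3049 in WT liver. Its log2 fold change was 0.80 ± 0.24 in the authors' deposited table (adjusted p = 0.010), with a 95% interval of 0.32 to 1.28. Cyp7a1 is a strongly regulated gene whose product sets the flow of cholesterol into bile acids. The rise did not pass at an adjusted p under 0.01, nor against a 1.5-fold change (adjusted p = 1). Centred instead on 26 genes of secreted plasma proteins, which lifts all log2 fold changes by 0.56, the value of Cyp7a1 was 1.36.

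Cyp8b1 had a negative value and did not pass the test. This enzyme adds the hydroxyl group that turns the product into cholic acid, so its activity sets the balance of cholic acid to other bile acids. The reconstructed mean was 5411 normalized counts in 4N liver and 8563 in WT liver. The authors' deposited table gave Cyp8b1 a log2 fold change of -0.66 ± 0.27 (adjusted p = 0.081), short of the threshold, with a 95% interval of -1.19 to -0.13 that does not overlap the one of Cyp7a1. With 3 degrees of freedom the intervals are wider and do overlap, at 0.02 to 1.57 for Cyp7a1 and -1.53 to 0.20 for Cyp8b1. On levels per kilobase of exon, the ratio of Cyp7a1 to Cyp8b1 was 0.458 in 4N liver and 0.166 in WT liver. The log2 fold changes of Cyp7a1 and Cyp8b1 differed by 1.46. The difference was not tested, since both genes were measured in the same libraries and their covariance is not known. Centred on the plasma proteins, Cyp8b1 stood at -0.10.

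The promoter of Cyp8b1 is shown because its known activators, the nuclear receptors encoded by Hnf4a and Nr5a2, are among the regulators measured. Promoters run from 250 bases before to 50 bases after the start of the gene in RefSeq (GRCm38.p6, an earlier build than the GRCm39 of the expression data), and 4 of the 9 enzymes matched an entry. The region of Cyp8b1 is chr9:121916256-121916555 on the minus strand. Capitals mark matches, on either strand, to CAAAGTCCA (an HNF4-type element), CAAGGNCA (an extended half-site of the NR5A type) and TATAAA (the box that positions transcription).
Cyp8b1: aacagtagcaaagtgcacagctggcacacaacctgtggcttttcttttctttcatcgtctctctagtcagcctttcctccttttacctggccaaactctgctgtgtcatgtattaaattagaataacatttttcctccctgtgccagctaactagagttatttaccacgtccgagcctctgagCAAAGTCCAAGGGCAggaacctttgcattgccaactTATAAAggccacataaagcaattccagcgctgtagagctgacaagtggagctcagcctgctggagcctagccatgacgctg
The HNF4-type match begins 67 bases before the start and shares its last 2 bases with the NR5A-type match, which begins 60 bases before it, and the TATAAA match begins 31 bases before it. Of 32851 promoters of the same length, 0.475% hold the HNF4-type letters, 6.71% the NR5A-type letters and 13.6% the TATAAA letters. The other enzymes with an entry, Cyp27a1, Akr1d1 and Acox2, hold none of these letters in this window. These matches are descriptions of the letters and not measured binding sites. In the NR5A-type letters N stands for any base, and it is G in Cyp8b1. Because this promoter was chosen for its known activators, the shares do not test whether its matches are unusual.

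Neither enzyme of the alternative route passed the test. Cyp27a1, the mitochondrial sterol hydroxylase that opens this route and also begins side chain oxidation in the classical one, had a mean of 2446 normalized counts in 4N liver and 1930 in WT liver. Its log2 fold change was 0.34 ± 0.27 (adjusted p = 0.47) in the authors' deposited table, with a 95% interval of -0.18 to 0.87. Centring on the plasma proteins brought Cyp27a1 past the threshold (0.90, adjusted p = 0.0040), as it called 6603 of all 23022 genes higher. Cyp27a1 is also expressed by macrophages, whose markers are given above, and their part in its value was not tested. Cyp7b1, the oxysterol hydroxylase of this route, was scarce, with 52.4 normalized counts in 4N liver and 21.8 in WT liver. The authors' deposited table gave Cyp7b1 1.26 ± 0.80 (adjusted p = 0.33), and its interval of -0.30 to 2.83 leaves both a fall and a large rise possible at this depth.

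Akr1d1, which reduces the double bond of the steroid ring and gives bile acids their bent shape, had the largest absolute Wald statistic of the enzymes. Its mean was 4664 normalized counts in 4N liver and 21373 in WT liver, so that 21.8% of the WT level was left. The log2 fold change was -2.20 ± 0.22 (adjusted p = 1.86e-20, 95% interval -2.63 to -1.76) in the authors' deposited table. By the size of its statistic Akr1d1 ranked 128 among the 23022 genes. Its promoter is shown as that of the only enzyme with a called fall that matched an entry, at chr6:37529923-37530222 on the plus strand in GRCm38.p6, and carries no capitals because it holds none of the letters searched.
Akr1d1: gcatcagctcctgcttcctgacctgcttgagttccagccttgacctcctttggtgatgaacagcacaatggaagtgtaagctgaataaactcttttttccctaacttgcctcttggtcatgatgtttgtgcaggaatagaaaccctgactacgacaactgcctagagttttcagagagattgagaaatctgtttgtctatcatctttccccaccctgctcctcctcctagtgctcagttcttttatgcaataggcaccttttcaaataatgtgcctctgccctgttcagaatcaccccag

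**Figure D2:**
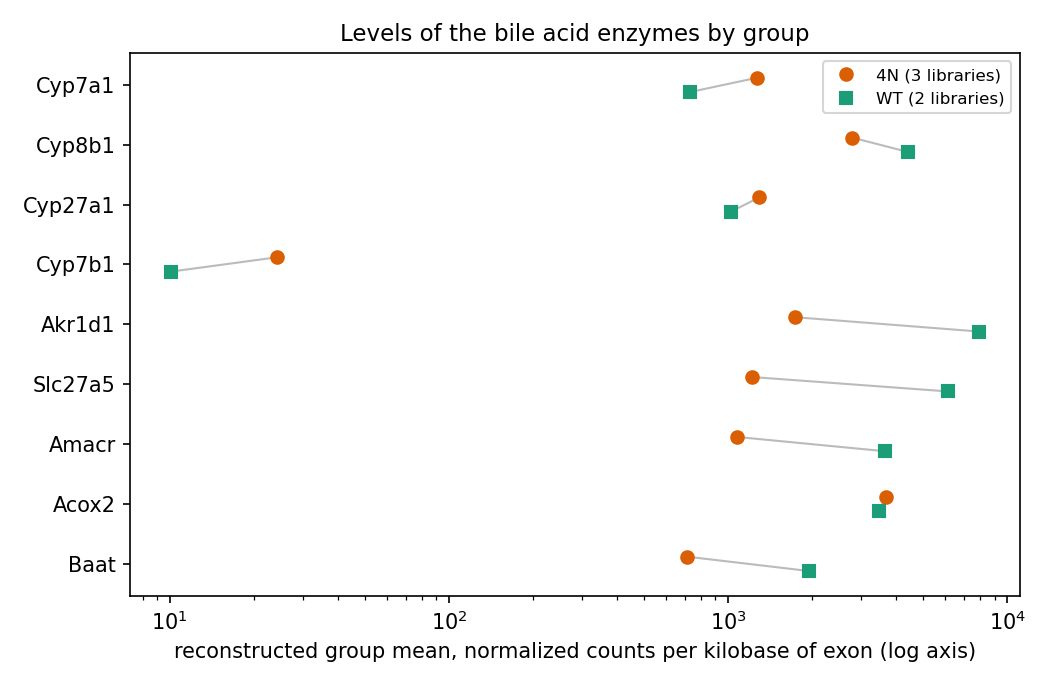
Reconstructed group means of the 9 enzymes in normalized counts per kilobase of exon on a log axis, 4N as circles and WT as squares, with 3 and 2 libraries behind them. The markers carry no error bars because values of single livers were not analysed. Akr1d1 (1728 in 4N, 7919 in WT) and Slc27a5 (1219 in 4N, 6100 in WT) are the furthest apart among the abundant enzymes, and Acox2 (3666 in 4N, 3459 in WT) nearly coincides.

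Slc27a5 had the lowest log2 fold change of the 9 enzymes. It encodes the bile acid-CoA ligase of the liver, which also takes up long-chain fatty acids and activates returning bile acids for conjugation. The mean was 2840 normalized counts in 4N liver and 14214 in WT liver. In the authors' deposited table the value of Slc27a5 was -2.32 ± 0.33 (adjusted p = 1.12e-10, 95% interval -2.97 to -1.68). Among the 8656 abundant genes, Slc27a5 had the 119th lowest log2 fold change and Akr1d1 the 130th lowest.

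Of the side chain enzymes, Amacr fell and Acox2 did not pass. Amacr, the racemase that turns the side chain into the form the next enzyme accepts, had 2761 normalized counts in 4N liver and 9424 in WT liver. Its log2 fold change was -1.77 ± 0.21 (adjusted p = 6.73e-16, 95% interval -2.17 to -1.37) in the authors' deposited table. Acox2, the oxidase that takes the product of Amacr, had 10860 normalized counts in 4N liver and 10247 in WT liver. The authors' deposited table gave Acox2 0.08 ± 0.20 (adjusted p = 0.86), and its 95% interval of -0.30 to 0.47 does not overlap that of Amacr. On levels per kilobase, the ratio of Acox2 to Amacr was 3.42 in 4N liver and 0.946 in WT liver. This shift between neighbouring steps was not tested as a difference. Centring on the plasma proteins moved Acox2 past the threshold, at 0.65 (adjusted p = 0.0049), and called 6603 of all 23022 genes higher.

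Baat, the enzyme that conjugates bile acids to taurine or glycine, fell, as did Slc27a5, which activates returning bile acids for conjugation. The mean of Baat was 1381 normalized counts in 4N liver and 3777 in WT liver. The log2 fold change of Baat was -1.45 ± 0.33 (adjusted p = 2.07e-04, 95% interval -2.10 to -0.80) in the authors' deposited table, and against a 1.5-fold change it did not pass (adjusted p = 0.14). The intervals of Baat and Slc27a5 overlap.

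The order of levels per kilobase differed between the groups. In 4N liver Acox2 was the most abundant of the 9, followed by Cyp8b1 (2775) and Akr1d1, and then by Cyp27a1 (1293), Cyp7a1 (1272), Slc27a5 and Amacr (1071), whose levels lay close together. In WT liver Akr1d1 came first, followed by Slc27a5, Cyp8b1 (4391), Amacr (3657) and Acox2. Cyp7a1 ranked 5 of 9 in 4N liver, and 8 of 9 in WT liver. Baat stood at 711 in 4N liver and 1946 in WT liver, and Cyp7b1 was last in both groups, at 24.2 in 4N liver and 10.1 in WT liver. Which neighbours in this order differ beyond the spread between livers could not be tested. The order was the same with the length of the longest coding transcript in place of that of all exons, a check added once the values were known. Summed over the 9 enzymes, the mean was 35721 normalized counts in 4N liver and 72598 in WT liver.

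The precision of the fold changes differed among the enzymes. Taking libraries as equally deep, the SEs of the 8 abundant enzymes imply a coefficient of variation within a group. It ran from 14.8% for Acox2 to 25.0% for Baat and Slc27a5. These values follow from the SEs of the authors' model and are not a spread observed between livers, whose single values were not analysed. The SE of Slc27a5 was larger than that of 96.5% of the 1746 genes with a mean within 1.5-fold of its own, and the SE of Baat larger than that of 94.2% of 3156 such genes. Amacr was measured more tightly, with an SE above 21.5% of 2344 such genes, and Acox2 with one above 15.8% of 1201.

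**Figure D3:**
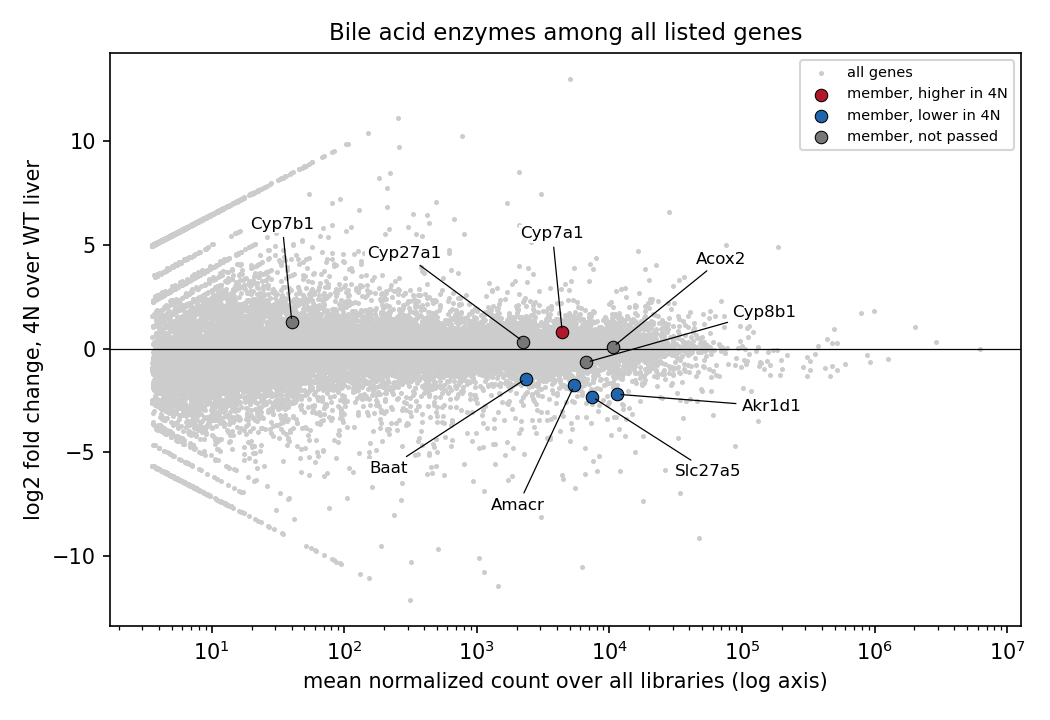
Log2 fold change of 4N over WT liver against the mean normalized count over all libraries (log axis) for all 23022 genes in grey, with the 9 enzymes labelled and coloured by the outcome of the authors' test. The 4 enzymes that fell lie toward the lower edge of genes of similar mean, and Cyp7b1, at a mean of 40.2, lies where the grey cloud is wide.

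Of 14 further genes of bile acid synthesis, 6 fell, 2 rose and 6 did not pass, with a median log2 fold change of -0.56, against the 7.41% of all genes that were lower and the 7.94% that were higher. Among abundant genes 11.9% were higher, so 2 of 14 is near the background, and 1 of the 2 remained higher in the test against a 1.5-fold change. Scp2, whose longer product is the peroxisomal thiolase that cleaves the side chain, fell by 1.94 ± 0.19 (adjusted p = 5.75e-23) in the authors' deposited table. Slc27a2, a second acyl-CoA ligase, fell by 2.06 ± 0.22 and Hsd17b4, the peroxisomal enzyme that acts after Acox2, by 1.11 ± 0.19, both in the authors' deposited table. Cyp39a1, which hydroxylates the ring of a brain-derived oxysterol, also fell, at -1.96 ± 0.29 (adjusted p = 1.24e-09) in the authors' deposited table. Cyp2a12, which rehydroxylates bile acids altered by gut bacteria in mice, rose by 1.91 ± 0.29 (adjusted p = 2.64e-09), and Fdx1, the electron carrier of mitochondrial cytochromes such as Cyp27a1, by 0.74 ± 0.21, in the authors' deposited table. Cyp2c70, the mouse enzyme that makes muricholic acids, had 16761 normalized counts in 4N liver and 12031 in WT liver, and the authors' deposited table gave it 0.48 ± 0.25 (adjusted p = 0.21). Ch25h averaged 4.84 normalized counts across the 5 livers and is too scarce for a fold.

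**Figure D4:**
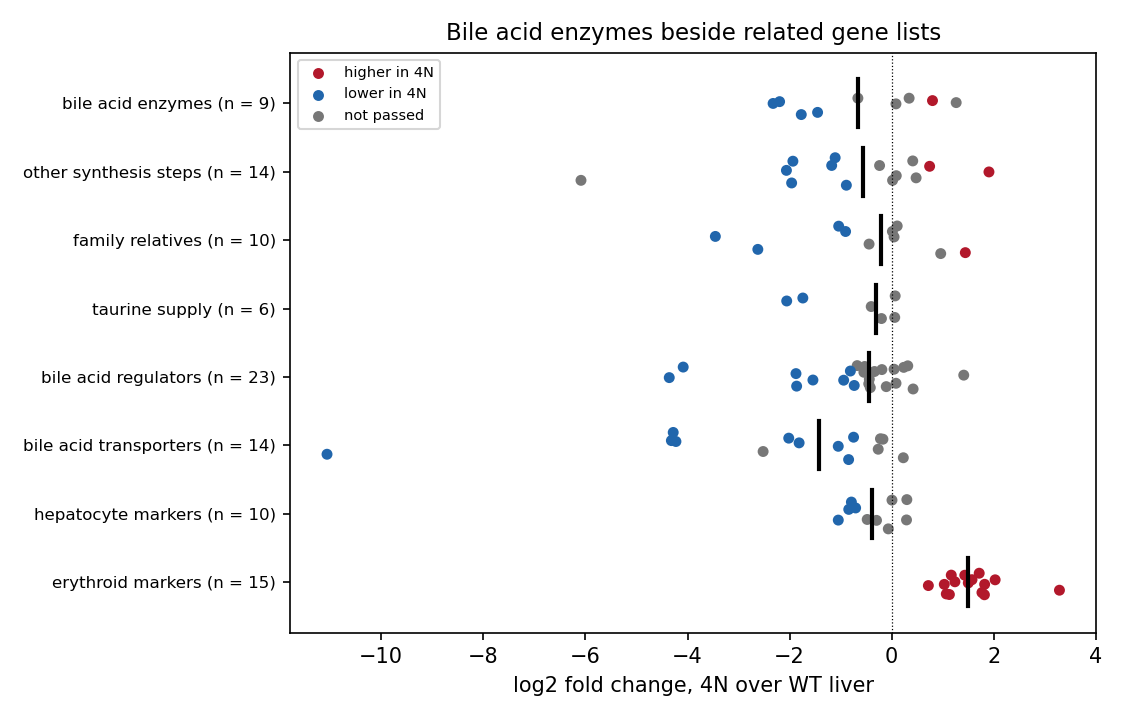
Log2 fold change of 4N over WT liver for each gene of the enzyme set, of 5 related lists and of hepatocyte and erythroid markers, one point a gene, red or blue where the authors' test passed, with black bars at the medians. The transporter list has the lowest median (-1.43) and the enzyme set (-0.66) lies near the other synthesis steps (-0.56), while all 15 erythroid markers lie above 0.

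Genes that supply taurine for the Baat reaction were lower or did not pass. Of 6 measured genes 2 fell, 0 rose and 4 did not pass, with a median log2 fold change of -0.30. Among all genes 7.41% were lower and 7.94% higher. Cdo1, which oxidizes cysteine at the start of taurine synthesis, had 6131 normalized counts in 4N liver and 25509 in WT liver, a log2 fold change of -2.06 ± 0.23 (adjusted p = 9.22e-18) in the authors' deposited table. Cth, which makes cysteine, fell by 1.74 ± 0.22 in the authors' deposited table. Csad, the decarboxylase that follows Cdo1, did not pass (-0.40 ± 0.31, adjusted p = 0.46), nor did Fmo1, the most abundant of those that did not pass (0.07 ± 0.33), both in the authors' deposited table.

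Among the relatives of the enzymes, 4 of 10 fell, 1 rose and 5 did not pass, with a median log2 fold change of -0.21. Of all genes 7.41% were lower and 7.94% higher, so 1 of 10 higher is near the background. Acnat1 and Acnat2, acyltransferases related to Baat, stood at -1.04 ± 0.26 and -3.45 ± 0.95 in the authors' deposited table and both fell. Reads of these close copies can be shared, so their values are uncertain. Slc27a4, a fatty acid transporter related to Slc27a5, did not pass (0.11 ± 0.26 in the authors' deposited table). The steroid dehydrogenases Hsd3b1 and Hsd3b2 went opposite ways, at 1.44 ± 0.22 and -2.62 ± 0.22 in the authors' deposited table, and as members of a family of near-identical copies their values are uncertain.

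Regulators of the pathway fell or did not pass. Of 23 measured regulators 8 fell, 0 rose and 15 did not pass, with a median log2 fold change of -0.45. The shares of all genes were 7.41% lower and 7.94% higher. Nr1h4, the bile acid receptor FXR, fell by 0.73 ± 0.21 (adjusted p = 0.0044) in the authors' deposited table. Nr0b2, a target of FXR whose product represses Cyp7a1 and Cyp8b1, had 134 normalized counts in 4N liver and 2278 in WT liver, a log2 fold change of -4.08 ± 0.42 (adjusted p = 2.91e-20) in the authors' deposited table. Also lower in the authors' deposited table were the receptor gene Nr1i3 (-4.36 ± 0.41), Insig2, a brake on sterol synthesis (-1.86 ± 0.24), and the clock gene Nr1d1 (-1.54 ± 0.36). The activator Nr5a2 did not pass (-0.54 ± 0.22, adjusted p = 0.070), and neither did Hnf4a (-0.34 ± 0.20, adjusted p = 0.29), in the authors' deposited table. Fgfr4 and Klb, the receptor and co-receptor through which a gut hormone represses Cyp7a1, stood at -0.44 ± 0.32 and 0.05 ± 0.28 in the authors' deposited table and did not pass. Centred on the plasma proteins, 3 of the 23 regulators were higher and 5 lower, against 6603 higher and 866 lower of all 23022 genes.

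Most bile acid and bile lipid transporters fell. Of 14 measured transporters 9 fell, 0 rose and 5 did not pass, with a median log2 fold change of -1.43. Over all genes 7.41% were lower and 7.94% higher. Slc10a1, the sodium-dependent importer of conjugated bile acids, had 11348 normalized counts in 4N liver and 39890 in WT liver (-1.81 ± 0.23, in the authors' deposited table). Abcb11, the pump that exports bile salts into bile, fell by 1.05 ± 0.22 (adjusted p = 3.66e-05) in the authors' deposited table. Among the organic anion importers, Slco1b2 stood at -4.23 ± 0.29 and Slco1a1 at -4.28 ± 0.31 in the authors' deposited table. Slco1a4 fell as well, with a reconstructed mean of 0.178 normalized counts in 4N liver, too few for a fold, and 380 in WT liver. Atp8b1, a lipid flippase of the bile canaliculus, did not pass (-0.22 ± 0.27, in the authors' deposited table).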

How the data were processed

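RNA of 3 4N and 2 WT livers was sequenced from poly(A)-selected libraries, per the labels' protocols. Reads were placed on GRCm39, the build named by the submitters' processing notes. Sources used here do not name the aligner, counter or test. A single comparison table was deposited by the authors. Per the file headers it holds a mean signal (normalized counts averaged over all libraries), log2 fold changes with their standard errors on the log2 scale, a Wald statistic (a score), p-values and adjusted p-values, with column names as in DESeq2. Checked on the values, the p-values are 2-sided normal tails and the adjusted ones follow Benjamini-Hochberg over the 23022 genes, with 0 missing.

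The table does not name its numerator. If it were WT, 22 genes would have standard errors below the limit set by counting, against 0 if it is 4N, so fold changes are read here as 4N over WT. The limit takes libraries as equally deep, and their depth is unknown. The direction of all fold changes thus rests on these 22 genes and not on a label. In 23022 genes simulated as 4N over WT, standard errors were built from counting noise and 1 fixed dispersion. By that construction 0 fell below the limit when read in the right direction, so this outcome tests nothing. Read in the wrong direction 2322 fell below it, against 22 in the data, so the simulated setting differs from the data. Group means followed from the mean over all libraries, the fold change and the group sizes. Exon lengths and chromosomes came from GENCODE M21, of an earlier build.

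The enzymes and lists were chosen with earlier results of these data known. All enzymes are named, as are up to 4 called members per direction and list by adjusted p, the most abundant member that did not pass, and genes always named. The most abundant marker of each cell type is named too. One gene that this rule named is not reported here. Alternatives were a mean of at least 50, an adjusted p under 0.01, a test against a 1.5-fold change, a t reference with 3 degrees of freedom, and centring on genes whose mean reached 10000 or on the list of plasma proteins. Python 3.11.15 was used, together with scipy 1.17.1, numpy 2.4.6, matplotlib 3.10.9 and pandas 2.3.3.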

Additional observations from a re-analysis of the deposited data

How the results depend on the processing

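No paired analysis was possible because the groups share no replicate number, and no library could be left out because the table holds no values of single libraries. Against a t distribution with 3 degrees of freedom, 0 enzymes, 0 genes of each of the 5 related lists and 0 of all genes passed in either direction. The 4 lower enzymes were also called under the other settings, except Baat in the test against a 1.5-fold change. The higher count, 1, was 0 at an adjusted p under 0.01 and in the test against a 1.5-fold change. It was 3 of 9 after centring on the plasma proteins (a shift of 0.56), which called 6603 of all 23022 genes higher. Only the centrings could change a sign, because the other settings leave the log2 fold changes as they are. No enzyme changed sign under either centring. Cyp7b1 has no value with a mean of at least 50. Centring on genes whose mean reached 10000 changed the call of 0 enzymes.

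Over all genes, 1705 lower and 1828 higher became 588 and 521 in the test against a 1.5-fold change. At an adjusted p under 0.01, 1210 were higher. Centring on the plasma proteins gave 866 lower and 6603 higher, 88.4% higher against 51.7%. Against a 1.5-fold change, the lower counts were 3 of the other synthesis steps, 1 of the relatives and 3 of the regulators, and 1 other synthesis step was higher. After centring on the plasma proteins, 2 relatives were lower and 2 higher, 5 regulators were lower and 3 higher, and 1 taurine gene was higher. With 5 libraries of unknown depth, a change in Cyp7b1 was not detectable within its wide interval.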

Other observations

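Families of the enzymes were counted by symbol after their values had been seen. Of 16 listed genes of the aldo-keto reductase 1 family, to which Akr1d1 belongs, 7 fell, 0 rose and 9 did not pass. Besides Akr1d1, those with the largest falls were Akr1c18, which inactivates progesterone, at -6.35 ± 0.90 (± SE), Akr1c6 at -4.43 ± 0.39, Akr1c20 at -3.07 ± 0.27 and Akr1c14 at -2.28 ± 0.34 on the log2 scale of the authors' deposited table. Akr1c14 had a reconstructed mean of 3772 normalized counts in 4N liver and 18322 in WT liver, and it encodes a steroid reductase able to act on the product of Akr1d1. The Akr1c genes are close copies that can share reads, so their single values are uncertain. Of 6 listed Slc27 genes 2 fell, 0 rose and 4 did not pass, with a median log2 fold change of 0.08, and of 6 listed Hsd3b genes 2 fell, 2 rose and 2 did not pass, with a median of -1.08. Of 80 listed cytochrome P450 genes 42 fell, 4 rose and 34 did not pass, with a median of -1.72. For these family counts, the shares over all genes were 7.41% lower and 7.94% higher.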
